A study of Homo sapiens with 12 samples.

Results

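The 38 genes described here encode the glycolytic pathway and the transcriptional response to low oxygen: 3 glucose and lactate transporters, 15 glycolytic enzymes, 2 enzymes that set the level of a glycolytic activator, 4 enzymes that decide the fate of pyruvate, 3 genes of hypoxia-inducible factor (HIF) and its oxygen sensors, and 11 genes known to be induced through HIF. They were chosen by symbol, with earlier results of these data known. All 38 were found among the 60617 Ensembl genes of the deposited count table and passed the filter on low counts, which kept 18524 genes. The 12 sequenced libraries were made from A549, a line of human lung adenocarcinoma cells. The groups, 3 libraries each, were cells with YTHDF1 knocked out (YTHDF1 KO), cells given small interfering RNA against ARID1A (siARID1A), cells with both changes (the combined group) and unmodified cells (WT). YTHDF1 is a cytoplasmic reader of N6-methyladenosine in RNA, and ARID1A is a subunit of the SWI/SNF chromatin remodeller. The genotype field calls the YTHDF1 change a knockout and the sample titles call it a knockdown. The labels do not give whether these cells were 1 clone or a pool, and they name no control small interfering RNA and no hypoxia treatment. The titles number the libraries of a group as biological replicates, but nothing says that they came from separate cultures, so p-values measure the spread between these libraries, which may be technical.

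Glycolysis splits glucose into pyruvate in the cytosol, and lactate dehydrogenase and monocarboxylate transporters dispose of the pyruvate as lactate. When oxygen is plentiful, prolyl hydroxylases of the EGLN family mark HIF-alpha proteins for destruction. When it is scarce, HIF-alpha persists, binds DNA at short motifs with the core ACGTG or GCGTG, and raises genes for glucose uptake, glycolysis, blood vessel growth and control of pH. HIF1A protein is thus set mainly after transcription, and RNA levels such as those given here do not measure it. Lung adenocarcinoma cells in culture draw heavily on glycolysis even when oxygen is plentiful.

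Promoter windows of 300 bases (250 before and 50 after the start of transcription) were available from RefSeq on GRCh38.p14 for 34 of the 38 genes, 61 windows in all. The genes with none were SLC2A3, VEGFA, BNIP3L and NDRG1. ACGTG or GCGTG, read on both strands, stood in 41 of these 61 windows (67.2%), against 48.4% of all 35116 windows of the table. ACGTG alone was in 41% of the members' windows, against 21.4% of all, and GCGTG in 39.3%, against 36.5%. CACGTG, which holds ACGTG on both strands, was in 13.1%, against 7.26%. Counted by gene, 31 of 34 members (91.2%) had the motif in at least 1 window, against 52.4% of 27305 genes, and genes with several starts have more windows to hold it. A match is a description of letters, not a binding site. Windows are shown for 4 genes that fell in YTHDF1 KO and for ADM and ANGPTL4, which rose in it. Each reads 5′ to 3′ on the gene's strand, with capitals for each ACGTG or GCGTG and for its reverse complement.
CA9 (chr9:35673678-35673977, plus strand): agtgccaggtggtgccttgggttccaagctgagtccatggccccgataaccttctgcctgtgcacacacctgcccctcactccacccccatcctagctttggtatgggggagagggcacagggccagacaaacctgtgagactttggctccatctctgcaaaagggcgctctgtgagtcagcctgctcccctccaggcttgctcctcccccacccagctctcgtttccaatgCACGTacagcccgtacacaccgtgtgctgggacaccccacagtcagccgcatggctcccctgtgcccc
CA12 (chr15:63381797-63382096, minus strand): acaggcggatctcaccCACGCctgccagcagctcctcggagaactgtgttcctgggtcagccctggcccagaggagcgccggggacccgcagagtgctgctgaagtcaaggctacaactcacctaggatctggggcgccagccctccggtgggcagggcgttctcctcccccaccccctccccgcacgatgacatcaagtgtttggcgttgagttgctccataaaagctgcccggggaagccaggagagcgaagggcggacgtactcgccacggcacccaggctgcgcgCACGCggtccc
SLC2A1 (chr1:42958819-42959118, minus strand): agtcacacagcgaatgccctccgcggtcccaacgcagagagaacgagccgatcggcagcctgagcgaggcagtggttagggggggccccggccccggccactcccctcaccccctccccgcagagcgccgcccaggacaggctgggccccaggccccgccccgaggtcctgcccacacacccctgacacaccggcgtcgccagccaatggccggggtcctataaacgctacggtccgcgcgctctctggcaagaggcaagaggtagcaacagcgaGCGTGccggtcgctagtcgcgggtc
EGLN3 (chr14:33951025-33951324, minus strand): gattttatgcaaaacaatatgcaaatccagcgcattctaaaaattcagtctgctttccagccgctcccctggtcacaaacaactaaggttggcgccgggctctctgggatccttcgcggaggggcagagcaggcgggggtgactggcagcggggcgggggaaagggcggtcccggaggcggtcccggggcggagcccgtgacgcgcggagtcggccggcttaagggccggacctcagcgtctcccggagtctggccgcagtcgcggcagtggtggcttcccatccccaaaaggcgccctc
ADM (chr11:10304823-10305122, plus strand): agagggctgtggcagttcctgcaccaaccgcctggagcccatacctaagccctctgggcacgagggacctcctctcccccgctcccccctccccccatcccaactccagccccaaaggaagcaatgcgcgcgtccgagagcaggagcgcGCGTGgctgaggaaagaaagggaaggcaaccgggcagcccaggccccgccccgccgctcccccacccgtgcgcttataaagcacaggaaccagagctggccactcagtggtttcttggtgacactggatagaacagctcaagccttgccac
ANGPTL4 (chr19:8363905-8364204, plus strand): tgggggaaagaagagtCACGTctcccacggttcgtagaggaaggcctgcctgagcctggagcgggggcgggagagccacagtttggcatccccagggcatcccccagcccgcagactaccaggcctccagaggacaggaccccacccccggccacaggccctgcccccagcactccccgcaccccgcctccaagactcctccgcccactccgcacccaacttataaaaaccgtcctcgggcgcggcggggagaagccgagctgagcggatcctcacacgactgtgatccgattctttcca
The CA9 and ANGPTL4 windows each held 1 match, to ACGTG on the opposite strand. SLC2A1 and ADM each had 1 match to GCGTG on the gene's own strand, and CA12 had 2 to GCGTG on the opposite strand. The EGLN3 window held none, which says only that these letters are not in these 300 bases.

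Library totals ran from 30220717 to 45042635 counts. The transcripts of both targeted genes were low where the labels say so. YTHDF1 stood at 26.7, 25.3 and 22.6 CPM (counts scaled to library size, with TMM factors) in YTHDF1 KO and at 32.2, 30.4 and 30.2 CPM in the combined group, against 88.3, 90.7 and 85.6 CPM in WT. ARID1A stood at 44.9, 41.0 and 41.6 CPM in siARID1A and at 46.7, 58.3 and 57.6 CPM in the combined group, against 168, 176 and 148 CPM in WT. Of the epithelial and A549 markers, KRT7, KRT8, KRT18, AKR1B10 and ALDH1A1 were abundant in all groups (the lowest group mean was 346 CPM, for AKR1B10). The lung lineage markers NKX2-1, SFTPB and SFTPC were near 0 (group means up to 0.129 CPM), as was KRT19 (up to 1.02 CPM). Markers of blood, stromal and endothelial cells summed to 32.97 to 37.96 CPM in YTHDF1 KO, 21.4 to 41.8 in siARID1A, 21.1 to 38 in the combined group and 32.6 to 59.1 in WT, and 3 of those 12 genes passed the filter. PECAM1, an endothelial marker among them, had 24, 6, 62 and 9 counts in YTHDF1 KO, siARID1A, the combined group and WT, and was higher in the combined group than in WT (2.79, adjusted p = 0.00617) and than in siARID1A (3.08, adjusted p = 0.00706). Its part in the results below was not tested. The epithelial and A549 list itself summed to 11450 to 12170 CPM in YTHDF1 KO and 12820 to 13560 in the combined group. It summed to 18260 to 21920 in siARID1A and 18080 to 20880 in WT. This sum was thus lower in both groups with YTHDF1 KO, and its part in the results below was not tested. Single markers differed (log2 fold changes against WT, adjusted p under 0.05 in edgeR's quasi-likelihood test). AKR1B10 fell in YTHDF1 KO and in the combined group (-2.92 in both), while NQO1 rose (0.37 and 0.55). CDH1 fell in YTHDF1 KO (-1.32) and rose in siARID1A (0.72), and EPCAM rose in siARID1A (1.215). KRT8 fell in YTHDF1 KO (-1.69), siARID1A (-0.41) and the combined group (-1.41), where KRT7 also fell (-0.83). KRT19, near 0 throughout, rose in siARID1A (4.78). Of 9 markers tested, 1 rose and 6 fell in YTHDF1 KO, and 4 rose and 1 fell in siARID1A. In the combined group 1 rose and 5 fell. Of all tested genes, 19.6% and 20.8%, 22.1% and 23%, and 25.6% and 25.9% rose and fell in the same order. WT replicate 2 stood apart. Mitochondrial transcripts made up 4.85% of it. They made up 7.90% and 8.23% of WT replicates 1 and 3, and 6.81% to 7.75% of the libraries of the other groups. Among members of at least 10 CPM, the median coefficient of variation was 2.78% in YTHDF1 KO, 5.04% in siARID1A, 4.64% in the combined group and 10.6% in WT.

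Most of the 38 genes changed in the comparisons with WT, and they did not move as a block. A call means an adjusted p under 0.05 in edgeR's quasi-likelihood test over all 18524 genes, and each share is set beside the share of all tested genes called the same way. In YTHDF1 KO against WT, 10 members were higher (26.3%, background 19.6%) and 18 lower (47.4%, background 20.8%), with a member median log2 fold change of -0.21. In siARID1A against WT, 13 were higher (34.2%, background 22.1%) and 10 lower (26.3%, background 23%), with a median of -0.05. In the combined group against WT, 14 were higher (36.8%, background 25.6%) and 18 lower (47.4%, background 25.9%), with a median of -0.19. These 3 comparisons share the WT libraries. Counted instead by libraries that did not overlap, 11 members were higher (background 24.1%) and 17 lower (background 24.6%) in YTHDF1 KO, 12 (background 24.7%) and 9 (background 25.5%) in siARID1A, and 13 (background 28.2%) and 17 (background 27.9%) in the combined group. The all-gene medians were -0.01, -0.01 and -0.01 in the same order. Without WT replicate 2 the counts were 12 higher and 19 lower in YTHDF1 KO, 13 and 12 in siARID1A, and 14 and 19 in the combined group. With library totals in place of TMM they were 12 and 15, 13 and 9, and 15 and 15, and the share of higher calls among all called genes was 61.2%, 57.1% and 63.4%, against 48.5%, 49% and 49.7% with TMM.

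Against siARID1A alone, the combined group had 5 members higher (13.2%, background 18.2%) and 16 lower (42.1%, background 17.2%). Against YTHDF1 KO alone, it had 7 higher (18.4%, background 12.5%) and 9 lower (23.7%, background 10.9%). By libraries that did not overlap, it had 8 members higher (background 25.3%) and 19 lower (background 23%) than siARID1A, and 13 higher (background 22.5%) and 12 lower (background 21.2%) than YTHDF1 KO. The 16 calls against YTHDF1 KO were the least steady. They fell to 4 higher and 4 lower without YTHDF1 KO replicate 3. The lower count was 5 without YTHDF1 KO replicate 1 or 2 or combined replicate 1 or 3. With library totals they turned to 10 higher and 6 lower (62.5% higher among the members called, against 43.8% with TMM). Among all called genes that share was 63.5% with library totals and 53.5% with TMM in this comparison, and 62.2% and 51.4% against siARID1A, where 7 members were then higher and 14 lower. Over all 4 groups, 15 members had group means more than 2-fold apart and 15 stayed within 1.5-fold. WT was the highest group for 17 members and the combined group the lowest for 16. In bulk libraries, less RNA per cell and fewer cells that express a gene cannot be told apart.

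**Figure D1:**
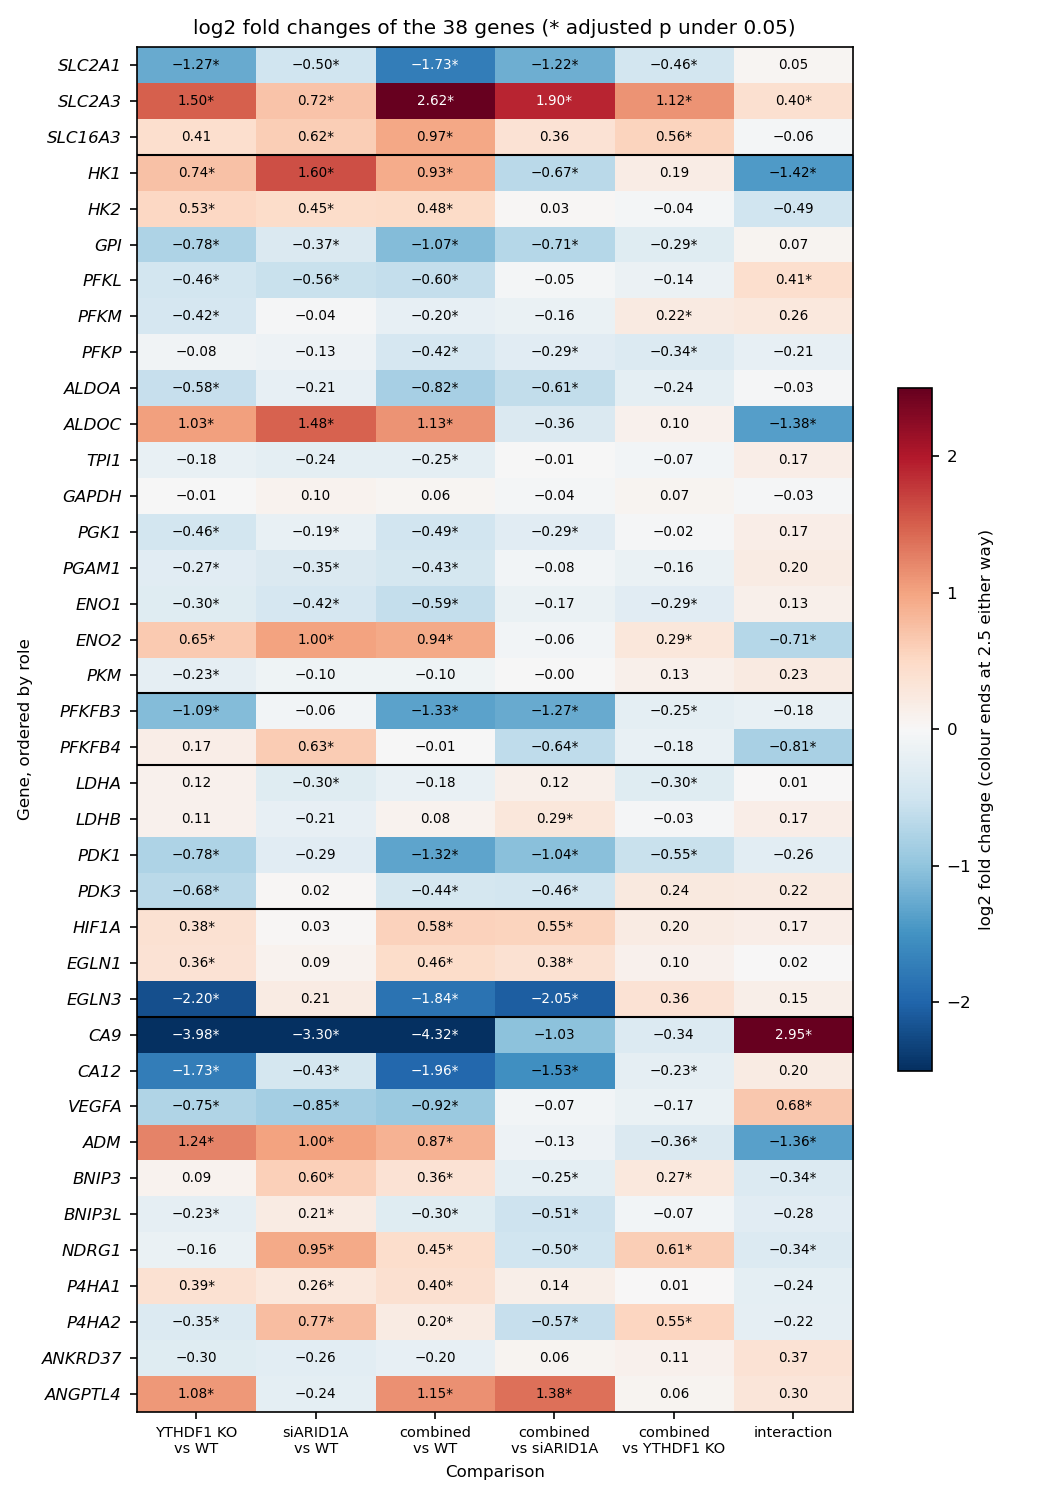
Log2 fold changes of the 38 genes (rows, ordered by role) in 5 pairwise comparisons and the interaction (columns), with an asterisk where the adjusted p was under 0.05. CA9 has the most negative value of the plot, -4.32 in the combined group against WT, and SLC2A3 the most positive value of a pairwise column, 2.62 in the same comparison.

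The glucose transporters of the set moved in opposite directions. SLC2A1 (GLUT1, the widespread basal glucose transporter; ENSG00000117394, GRCh38 chromosome 1, 42925375 to 42959176) stood at 98.8, 91.8 and 87.8 CPM in YTHDF1 KO, 162, 169.5 and 141 CPM in siARID1A, 57.6, 76.4 and 68.3 CPM in the combined group, and 243, 224 and 204 CPM in WT. The 4 groups did not overlap, with the combined group lowest and WT highest. SLC2A1 fell in YTHDF1 KO (log2 fold change -1.27, SE 0.0893, adjusted p = 8.84e-11), in siARID1A (-0.50, SE 0.109, adjusted p = 8.29e-05) and in the combined group (-1.73, SE 0.14, adjusted p = 3.23e-13), by edgeR's quasi-likelihood test against WT. It was also lower in the combined group than in YTHDF1 KO (-0.46, adjusted p = 0.000735) and than in siARID1A (-1.22, adjusted p = 2.68e-10).

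SLC2A3 (GLUT3, a high-affinity glucose transporter best known from neurons; ENSG00000059804, chromosome 12, 7919230 to 7936275) ran the other way. It stood at 133, 136 and 141 CPM in YTHDF1 KO, 89.8, 65.6 and 83.9 CPM in siARID1A, 299, 297 and 296 CPM in the combined group, and 48.7, 46.3 and 50.3 CPM in WT. The groups again did not overlap, and the order was that of SLC2A1 turned round. SLC2A3 rose in YTHDF1 KO (1.499, SE 0.0409, adjusted p = 2.68e-13), in siARID1A (0.72, SE 0.142, adjusted p = 1.7e-07) and in the combined group (2.62, SE 0.0347, adjusted p = 6.18e-18) against WT. Per kilobase of exon, SLC2A3 averaged 22.2 ± 0.591 CPM in YTHDF1 KO, 12.9 ± 2.05 in siARID1A, 48.3 ± 0.279 in the combined group and 7.86 ± 0.323 in WT (SD, n = 3). SLC2A1 averaged 19.6 ± 1.18, 33.4 ± 3.13, 14.3 ± 1.997 and 47.3 ± 4.20 CPM per kilobase in the same groups. SLC2A3 was thus the lower of the pair per exon length in WT and in siARID1A, and the higher in YTHDF1 KO and in the combined group. SLC16A3 (MCT4, which exports lactate) was low, at 4.48 ± 0.669 CPM in YTHDF1 KO, 5.17 ± 0.507 in siARID1A, 6.61 ± 0.451 in the combined group and 3.34 ± 0.761 in WT. It rose in siARID1A (0.62, adjusted p = 0.00618) and in the combined group (0.97, adjusted p = 4.58e-05) against WT. Its rise in the combined group over YTHDF1 KO (0.56, adjusted p = 0.0182) was lost without YTHDF1 KO replicate 1 or 3 or combined replicate 2 (adjusted p up to 0.0882).

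**Figure D2:**
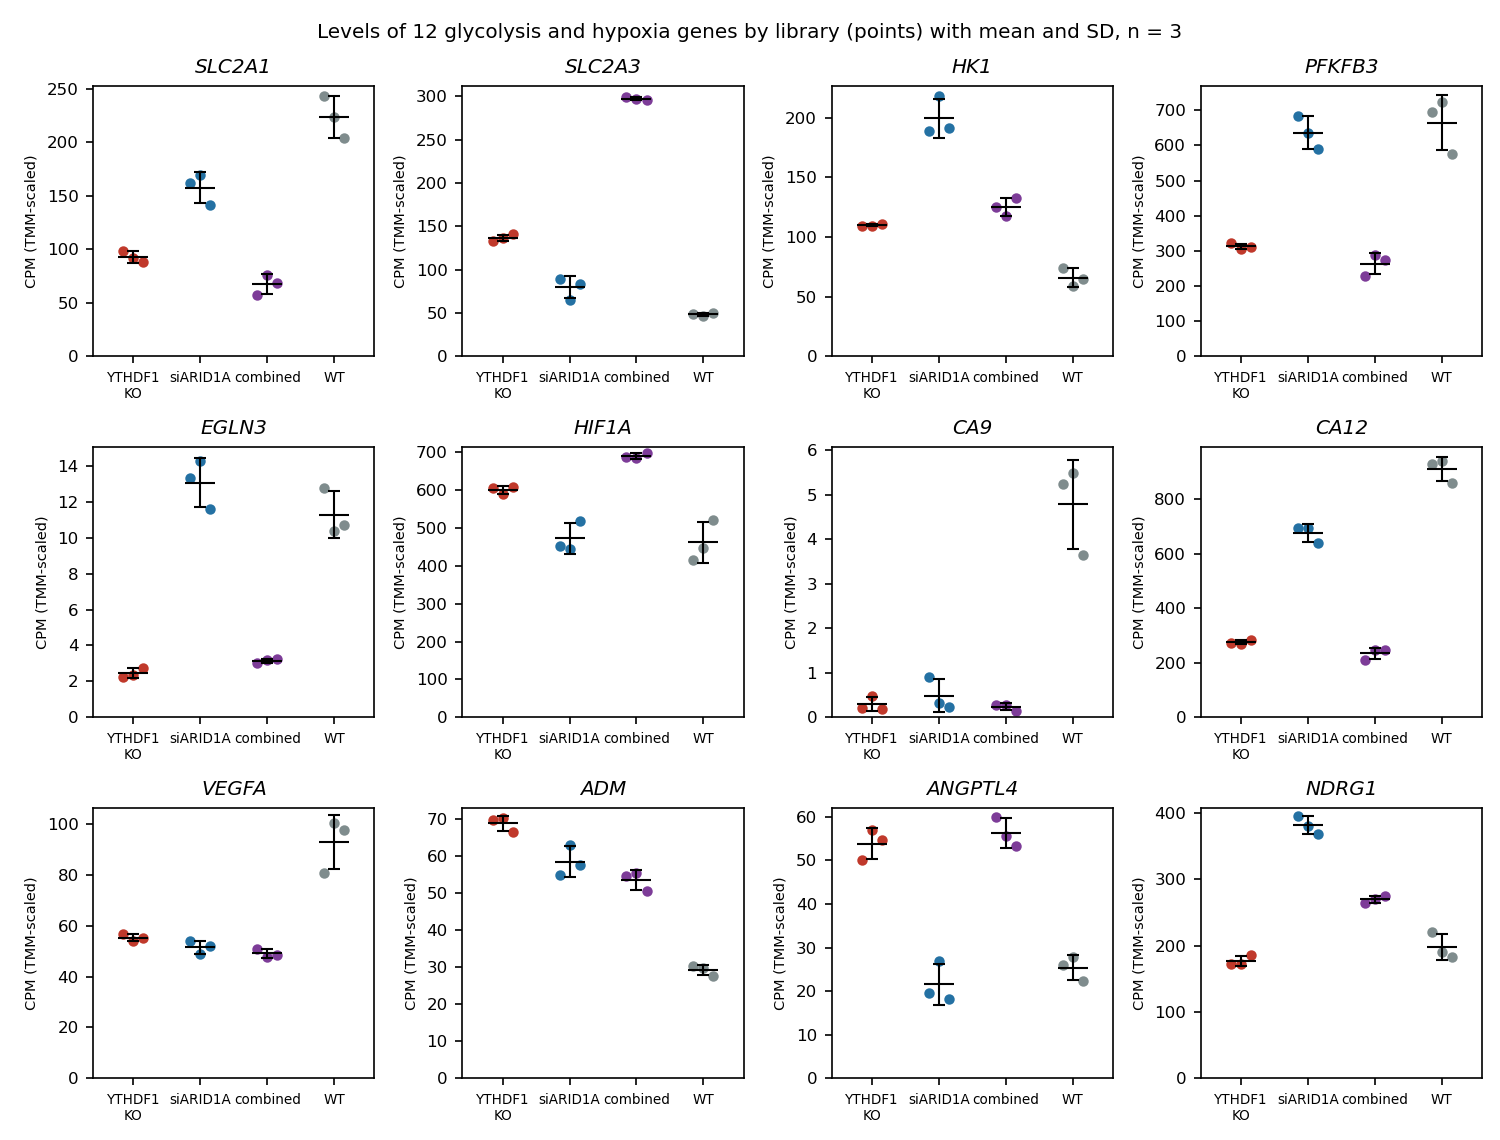
CPM of 12 of the genes in each library (points) with the mean and SD of 3 libraries (bars), by group, on axes that start at 0. SLC2A1 is lowest and SLC2A3 highest in the combined group, HK1 is highest in siARID1A, and EGLN3 and CA12 are low in both groups with YTHDF1 KO.

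Of the 15 glycolytic enzymes, 4 rose and 8 fell in YTHDF1 KO, 4 rose and 5 fell in siARID1A, and 4 rose and 9 fell in the combined group, each against WT. The shares of all tested genes that rose and fell were 19.6% and 20.8%, 22.1% and 23%, and 25.6% and 25.9% in these comparisons, so the 4 rises, and the 5 falls in siARID1A, were close to what all genes showed. The genes that rose were the same 4 in all 3: HK1, HK2, ALDOC and ENO2. All 15 enzymes together summed to 14110 to 14730 CPM in YTHDF1 KO and 14500 to 15600 in siARID1A. They summed to 13580 to 14420 CPM in the combined group and 14590 to 19020 in WT. The lowest WT sum was that of replicate 2, the library that stood apart, and its part in the WT spread was not tested.

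Of the hexokinases, the enzymes that trap glucose in the cell, the members HK1 and HK2 rose against WT, while HKDC1, a family gene outside the set that is given further on, fell in both groups with YTHDF1 KO. HK1 (ENSG00000156515, chromosome 10, 69269984 to 69401884) stood at 110, 109 and 111 CPM in YTHDF1 KO, 189, 219 and 192 CPM in siARID1A, 126, 117 and 133 CPM in the combined group, and 74.3, 58.6 and 64.5 CPM in WT. All 4 groups were apart, with siARID1A highest. HK1 rose in YTHDF1 KO (0.74, SE 0.0999, adjusted p = 4.81e-08), in siARID1A (1.60, SE 0.12, adjusted p = 1.03e-13) and in the combined group (0.93, SE 0.112, adjusted p = 6.29e-10) against WT, and was lower in the combined group than in siARID1A (-0.67, adjusted p = 2.24e-07). HK2, the form best known as induced in tumours, was much lower per kilobase of exon, at 1.04 CPM in YTHDF1 KO, 0.985 in siARID1A, 1.01 in the combined group and 0.717 in WT, against 17.5, 31.7, 19.9 and 10.4 for HK1. HK2 rose by 0.53 (adjusted p = 0.0159), 0.45 (adjusted p = 0.0355) and 0.48 (adjusted p = 0.0208) in YTHDF1 KO, siARID1A and the combined group against WT. The first of these calls was lost without WT replicate 3 (adjusted p = 0.058). The second was lost without siARID1A replicate 1 or 2 or WT replicate 1 or 3 (up to 0.14), and the third without combined replicate 1 or 3 or WT replicate 3 (up to 0.189). HK2 lies on chromosome 2, whose genes had a median log2 fold change of -0.41 in YTHDF1 KO and -0.42 in the combined group against WT, so that HK2 moved against its chromosome there.

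GPI, the isomerase of the next step (ENSG00000105220, chromosome 19, 34359480 to 34402413), stood at 690, 698 and 679 CPM in YTHDF1 KO, 938, 956 and 859.9 CPM in siARID1A, 549.7, 586 and 549.3 CPM in the combined group, and 1326, 1044 and 1180.0 CPM in WT. The groups did not overlap and kept the order seen for SLC2A1. GPI fell by 0.78 in YTHDF1 KO (SE 0.101, adjusted p = 1.83e-08), by 0.37 in siARID1A (SE 0.11, adjusted p = 0.00056) and by 1.07 in the combined group (SE 0.104, adjusted p = 4.44e-11) on the log2 scale against WT. It was lower in the combined group than in YTHDF1 KO (-0.29, adjusted p = 0.00861) and than in siARID1A (-0.71, adjusted p = 1.17e-07).

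Phosphofructokinase, the committed step, has 3 subunit genes. PFKL, the liver form, stood at 76.75, 74.9 and 77.9 CPM in YTHDF1 KO, 74.9, 69.3 and 70.1 CPM in siARID1A, 63.4, 75.4 and 68.7 CPM in the combined group, and 113, 104 and 98.5 CPM in WT. Every WT library was above every other library. PFKL fell by 0.46 (adjusted p = 1.46e-05), 0.56 (adjusted p = 9.67e-07) and 0.60 (adjusted p = 1.81e-07) in YTHDF1 KO, siARID1A and the combined group. PFKP, the platelet form, had the highest level per kilobase of exon of the 3 (147, 142, 116 and 155 CPM in YTHDF1 KO, siARID1A, the combined group and WT). It fell only in comparisons with the combined group: by 0.42 against WT (adjusted p = 0.000238), by 0.34 against YTHDF1 KO (adjusted p = 0.00519) and by 0.29 against siARID1A (adjusted p = 0.0108). The last was lost with library totals and without combined replicate 1 or siARID1A replicate 2 (adjusted p up to 0.11). PFKM, the muscle form, fell by 0.42 in YTHDF1 KO against WT (adjusted p = 3.63e-05). In the combined group it was 0.20 lower than in WT (adjusted p = 0.0222) and 0.22 higher than in YTHDF1 KO (adjusted p = 0.0271). Neither of those 2 calls held without combined replicate 1 or 3. The call against WT was also lost without WT replicate 1 or 2, with library totals, with no filter and with only the groups compared (adjusted p up to 0.496), and the call against YTHDF1 KO without any library of YTHDF1 KO, without combined replicate 2 and with no filter (up to 0.0914).

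The aldolase genes went apart. ALDOA, the main form in most tissues, stood at 7.36, 6.56 and 6.54 CPM in YTHDF1 KO, 9.70, 8.62 and 8.04 CPM in siARID1A, 5.59, 5.74 and 5.95 CPM in the combined group, and 12.8, 9.11 and 8.64 CPM in WT. The combined group was lowest and YTHDF1 KO next, while siARID1A overlapped WT. ALDOA fell by 0.58 in YTHDF1 KO (adjusted p = 0.00211) and by 0.82 in the combined group (adjusted p = 4.13e-05) against WT. In the annotation, 42.3% of its exon bases lie on the same strand as exons of ENSG00000285043, so its counts are uncertain, and the part of that overlap in its low level was not tested. ALDOC, the brain form, averaged 2.47 ± 0.280 CPM in YTHDF1 KO, 3.40 ± 0.403 in siARID1A, 2.65 ± 0.0886 in the combined group and 1.23 ± 0.37 in WT. It rose by 1.03 (adjusted p = 0.000867), 1.48 (adjusted p = 1.03e-05) and 1.13 (adjusted p = 0.000234) in those groups against WT, at low counts.

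In the lower, energy-yielding steps the changes were small and mostly downward. GAPDH, the oxidising step, did not pass in any comparison. Its mean ran from 3092 CPM in YTHDF1 KO to 3334 CPM in siARID1A among the changed groups and was 3116 ± 595 CPM in WT. PGK1, which makes the pathway's first ATP, fell by 0.46 in YTHDF1 KO (adjusted p = 1.01e-05), by 0.49 in the combined group (adjusted p = 3.49e-06) and by 0.19 in siARID1A (adjusted p = 0.0294) against WT. The siARID1A call was lost without siARID1A replicate 2 or 3 or WT replicate 1, with library totals, with no filter and with only the groups compared (up to 0.113). PGAM1, the mutase, fell by 0.27 (adjusted p = 0.00232), 0.35 (adjusted p = 0.000165) and 0.43 (adjusted p = 1.08e-05) in YTHDF1 KO, siARID1A and the combined group. TPI1, the triose isomerase, was 0.25 lower in the combined group than in WT (adjusted p = 0.0408). That call was lost under 10 of 18 alternatives (up to 0.301), among them leaving out WT replicate 1 or 3, combined replicate 1 or 3, YTHDF1 KO replicate 1 or 3, or siARID1A replicate 2. PKM, the last enzyme, passed only in YTHDF1 KO against WT (-0.23, adjusted p = 0.0246), and not without WT replicate 1 or any library of YTHDF1 KO, with library totals or with the replicate block (up to 0.126).

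The enolases moved apart like the aldolases. ENO1, the ubiquitous form (ENSG00000074800, chromosome 1, 8861000 to 8879250), stood at 3449, 3645 and 3493 CPM in YTHDF1 KO, 3268, 3438 and 3039 CPM in siARID1A, 2853, 3052 and 2777 CPM in the combined group, and 5081, 3462 and 4503 CPM in WT. Libraries of siARID1A and the combined group lay below all WT libraries, and YTHDF1 KO overlapped WT through WT replicate 2. ENO1 fell by 0.42 in siARID1A (SE 0.171, adjusted p = 0.0015) and by 0.59 in the combined group (SE 0.168, adjusted p = 3.1e-05). Its call in YTHDF1 KO against WT (-0.30, adjusted p = 0.02) was lost with library totals and without YTHDF1 KO replicate 1 or 3 or WT replicate 1 or 3 (up to 0.184). The call in the combined group against YTHDF1 KO (-0.29, adjusted p = 0.0431) was lost with the replicate block, without any library of either group and without siARID1A replicate 1 (up to 0.148). ENO2, the neuronal form (ENSG00000111674, chromosome 12, 6913745 to 6923698), stood at 54.25, 54.4 and 53.7 CPM in YTHDF1 KO, 67.9, 68.75 and 69.7 CPM in siARID1A, 67.05, 65.6 and 65.5 CPM in the combined group, and 35.7, 35.6 and 31.6 CPM in WT. The 4 groups were apart, with WT lowest. ENO2 rose by 0.65 (adjusted p = 3.07e-08), 1.00 (adjusted p = 2.65e-11) and 0.94 (adjusted p = 3.14e-11) in YTHDF1 KO, siARID1A and the combined group against WT, and by 0.29 in the combined group over YTHDF1 KO (adjusted p = 0.00287). Per kilobase of exon ENO2 remained far below ENO1, at 12.6, 16.1, 15.4 and 8.02 CPM, against 669, 616, 548.5 and 824 CPM, in YTHDF1 KO, siARID1A, the combined group and WT.

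**Figure D3:**
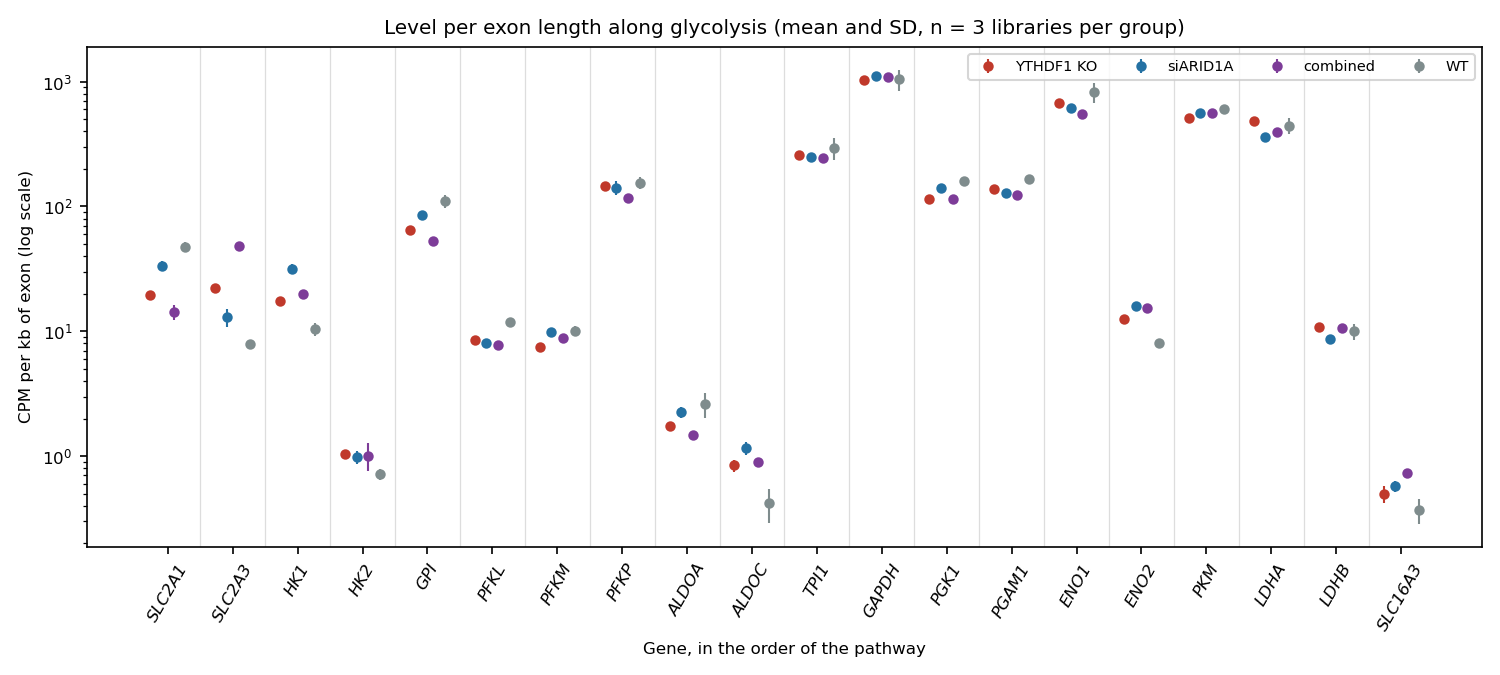
Mean CPM per kilobase of exon (log axis, bars SD, n = 3) for the transporters and enzymes in pathway order, by group. WT lies highest for SLC2A1, GPI and PFKL, and lowest for SLC2A3, HK1, ALDOC and ENO2, while GAPDH stands at 1037 CPM per kilobase in YTHDF1 KO and at 1045 in WT.

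The bifunctional enzymes PFKFB3 and PFKFB4 set the level of fructose 2,6-bisphosphate, the main activator of phosphofructokinase. PFKFB3 (ENSG00000170525, chromosome 10, 6144934 to 6254644) stood at 321, 306 and 312 CPM in YTHDF1 KO, 683, 636 and 589 CPM in siARID1A, 229, 288 and 275 CPM in the combined group, and 695, 724 and 576 CPM in WT. Both groups with YTHDF1 KO were below all others, and siARID1A overlapped WT. PFKFB3 fell by 1.09 in YTHDF1 KO (SE 0.104, adjusted p = 3.65e-10) and by 1.33 in the combined group (SE 0.143, adjusted p = 6.47e-12) against WT, and by 1.27 in the combined group against siARID1A (adjusted p = 3.17e-11). The call against YTHDF1 KO (-0.25, adjusted p = 0.0477) was lost under 9 of 18 alternatives (up to 0.288), among them leaving out any library of YTHDF1 KO, combined replicate 1 or 3, or siARID1A replicate 1 or 2. PFKFB4 stood at 16.9, 14.4 and 16.3 CPM in YTHDF1 KO, 24.7, 22.6 and 18.1 CPM in siARID1A, 12.6, 14.3 and 15 CPM in the combined group, and 13.4, 18.1 and 10.6 CPM in WT. The siARID1A libraries were the highest, though the lowest of them was almost level with WT replicate 2. PFKFB4 rose in siARID1A against WT (0.63, adjusted p = 0.00156) and was lower in the combined group than in siARID1A (-0.64, adjusted p = 0.00176).

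Among the genes for the fate of pyruvate, the pyruvate dehydrogenase kinase genes PDK1 and PDK3 fell in YTHDF1 KO, and LDHA and LDHB did not pass there. The kinase genes outside the set did not follow. PDK2 passed in no comparison (11.97 ± 1.67 CPM in YTHDF1 KO and 11.99 ± 0.861 in WT). PDK4 averaged 4.13 ± 0.222 CPM in YTHDF1 KO, 6.28 ± 3.01 in siARID1A, 16 ± 1.55 in the combined group and 3.78 ± 0.218 in WT, and rose in the combined group against WT (2.08, adjusted p = 1.91e-07) and against siARID1A (1.34, adjusted p = 5.16e-05). PDK3 (ENSG00000067992, chromosome X, 24465221 to 24541862), which like PDK1 encodes a kinase that inhibits pyruvate dehydrogenase, stood at 20.45, 19.7 and 21.65 CPM in YTHDF1 KO, 37.7, 30.1 and 32.8 CPM in siARID1A, 23.5, 25.1 and 24.35 CPM in the combined group, and 35.4, 31.4 and 32.3 CPM in WT. Both groups with YTHDF1 KO were below siARID1A and WT, which overlapped. PDK3 fell by 0.68 in YTHDF1 KO (adjusted p = 1.24e-06) and by 0.44 in the combined group (adjusted p = 0.000247) against WT. PDK1 was low, at 4.44 ± 0.885 CPM in YTHDF1 KO, 6.23 ± 1.22 in siARID1A, 3.04 ± 0.246 in the combined group and 7.6 ± 0.877 in WT. It fell by 0.78 in YTHDF1 KO (adjusted p = 0.000702) and by 1.32 in the combined group (adjusted p = 8.68e-07) against WT. PDK1 lies on chromosome 2, and the part of that chromosome's lower median in YTHDF1 KO (-0.41) and in the combined group (-0.42) was not tested. Its call against YTHDF1 KO (-0.55, adjusted p = 0.0304) was lost with library totals and without YTHDF1 KO replicate 1 or 3 or combined replicate 2 or 3 (up to 0.2). LDHA, which turns pyruvate into lactate, averaged 2991 ± 92.4 CPM in YTHDF1 KO, 2239 ± 74.8 in siARID1A, 2436 ± 116 in the combined group and 2762 ± 404 in WT. It fell by 0.30 in siARID1A against WT (adjusted p = 0.00786, 0.0507 without WT replicate 1) and by 0.30 in the combined group against YTHDF1 KO (adjusted p = 0.0178). The second call was lost without YTHDF1 KO replicate 2 or 3 or combined replicate 1 or 3 (up to 0.0776). LDHB passed in 1 comparison, the combined group over siARID1A (0.29, adjusted p = 0.0232), which was lost without combined replicate 1 or 2 or siARID1A replicate 1 (up to 0.11). Of its exon bases, 33.4% are shared on the same strand with ENSG00000285854, and its counts are uncertain.

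HIF1A, the gene of the oxygen-regulated HIF subunit (ENSG00000100644, chromosome 14, 61695513 to 61748259), stood at 604, 589 and 607 CPM in YTHDF1 KO, 454, 445.5 and 518.5 CPM in siARID1A, 688, 685 and 699 CPM in the combined group, and 416, 447 and 522 CPM in WT. Both groups with YTHDF1 KO were above siARID1A and WT, which overlapped. HIF1A rose by 0.38 in YTHDF1 KO (SE 0.0972, adjusted p = 0.000432) and by 0.58 in the combined group (SE 0.0967, adjusted p = 1.25e-06) against WT, and by 0.55 in the combined group against siARID1A (adjusted p = 5.53e-06). Of the prolyl hydroxylases in the set, EGLN1 (PHD2, the main oxygen sensor in most cells) followed HIF1A and EGLN3 (PHD3) did not. EGLN2, a gene of the same family outside the set, followed neither. By edgeR's quasi-likelihood test it fell in siARID1A against WT (-0.86, adjusted p = 3.37e-05). It was higher in the combined group than in siARID1A (0.72, adjusted p = 0.000371). EGLN1 averaged 46.25 ± 1.19 CPM in YTHDF1 KO, 38.3 ± 0.841 in siARID1A, 49.7 ± 0.262 in the combined group and 36.0 ± 8.17 in WT. It rose by 0.46 in the combined group against WT (adjusted p = 0.000963) and by 0.36 in YTHDF1 KO (adjusted p = 0.0099). The call in YTHDF1 KO was lost without WT replicate 1 and with only the 2 groups compared (up to 0.0622).

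EGLN3 (ENSG00000129521, chromosome 14, 33924231 to 34462774) stood at 2.25, 2.37 and 2.75 CPM in YTHDF1 KO, 13.3, 14.3 and 11.6 CPM in siARID1A, 3.01, 3.19 and 3.23 CPM in the combined group, and 12.8, 10.4 and 10.7 CPM in WT. Libraries with YTHDF1 KO were all under 4 CPM and the others all above 10 CPM. EGLN3 fell by 2.20 in YTHDF1 KO (SE 0.126, adjusted p = 6.27e-12) and by 1.84 in the combined group (SE 0.0984, adjusted p = 7.71e-11) against WT, and by 2.05 in the combined group against siARID1A (SE 0.0934, adjusted p = 2.17e-11). In siARID1A against WT it did not pass (0.21, adjusted p = 0.199). It is the gene shown above whose promoter window holds neither ACGTG nor GCGTG.

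The membrane carbonic anhydrases, which regulate pH at the cell surface and are classical markers of hypoxia, were lower in all 3 changed groups than in WT. CA12 (ENSG00000074410, chromosome 15, 63321378 to 63382161) stood at 271, 271 and 285 CPM in YTHDF1 KO, 694, 695 and 639 CPM in siARID1A, 212, 246 and 245.5 CPM in the combined group, and 930.1, 941 and 861 CPM in WT. The 4 groups did not overlap. CA12 fell by 1.73 in YTHDF1 KO (SE 0.047, adjusted p = 2.03e-15), by 0.43 in siARID1A (SE 0.057, adjusted p = 3.47e-05) and by 1.96 in the combined group (SE 0.0824, adjusted p = 1.33e-16) against WT, and by 1.53 in the combined group against siARID1A (adjusted p = 2.84e-14). The call against YTHDF1 KO (-0.23, adjusted p = 0.0234) was lost with library totals and without combined replicate 1 or any library of YTHDF1 KO (up to 0.166).

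CA9 (ENSG00000107159, chromosome 9, 35673856 to 35681159) was scarce. It had 0.210, 0.484 and 0.197 CPM in YTHDF1 KO, 0.907, 0.313 and 0.237 CPM in siARID1A, 0.282, 0.281 and 0.151 CPM in the combined group, and 5.25, 5.48 and 3.64 CPM in WT. In counts this was 35, 48 and 27 in the 3 changed groups, against 574 in WT, and no changed library reached 1 CPM. CA9 fell by 3.98 in YTHDF1 KO (SE 0.401, adjusted p = 1.13e-08), by 3.30 in siARID1A (SE 0.559, adjusted p = 1.4e-07) and by 4.32 in the combined group (SE 0.3, adjusted p = 3.43e-09) on the log2 scale against WT. The median of chromosome 9 genes was -0.36, -0.41 and -0.38 in the same comparisons, and the part of that shift in the CA9 values was not tested. Of the 1670 exon bases of CA9, 643 overlap exons of ARHGEF39 on the opposite strand. The strand setting of the counting is not known, so the CA9 counts are uncertain. The part of that overlap was not tested.

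The secreted factors of the set split. VEGFA (ENSG00000112715, chromosome 6, 43770184 to 43786487), the main angiogenic growth factor, stood at 56.6, 54.2 and 55.2 CPM in YTHDF1 KO, 53.8, 48.8 and 51.9 CPM in siARID1A, 50.95, 47.7 and 48.6 CPM in the combined group, and 80.7, 100.3 and 97.5 CPM in WT. All WT libraries were above all others. VEGFA fell by 0.75 (SE 0.1, adjusted p = 2.16e-08), 0.85 (SE 0.107, adjusted p = 3.46e-09) and 0.92 (SE 0.102, adjusted p = 3.91e-10) in YTHDF1 KO, siARID1A and the combined group.

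ADM (ENSG00000148926, chromosome 11, 10304680 to 10307397), which encodes the vasodilator adrenomedullin, stood at 69.75, 70.3 and 66.6 CPM in YTHDF1 KO, 54.8, 63.0 and 57.7 CPM in siARID1A, 54.65, 55.4 and 50.5 CPM in the combined group, and 30.3, 29.8 and 27.6 CPM in WT. All WT libraries were below all others. ADM rose by 1.24 (SE 0.048, adjusted p = 1.13e-12), 1.00 (SE 0.0716, adjusted p = 1.16e-10) and 0.87 (SE 0.0587, adjusted p = 5.41e-10) in YTHDF1 KO, siARID1A and the combined group, and was lower in the combined group than in YTHDF1 KO (-0.36, adjusted p = 0.000626). ANGPTL4 (ENSG00000167772, chromosome 19, 8363289 to 8374373), a secreted inhibitor of lipoprotein lipase, stood at 49.99, 56.9 and 54.6 CPM in YTHDF1 KO, 19.5, 27.0 and 18.15 CPM in siARID1A, 59.9, 55.7 and 53.25 CPM in the combined group, and 26.0, 27.8 and 22.3 CPM in WT. Both groups with YTHDF1 KO were above siARID1A and WT. ANGPTL4 rose by 1.08 in YTHDF1 KO (SE 0.11, adjusted p = 5.34e-08) and by 1.15 in the combined group (SE 0.107, adjusted p = 1.46e-08) against WT, and by 1.38 in the combined group against siARID1A (adjusted p = 1.77e-09). It did not pass in siARID1A against WT (-0.24, adjusted p = 0.102).

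Of the 11 hypoxia-induced members, 4 had their highest mean in siARID1A, namely NDRG1, P4HA2, BNIP3 and BNIP3L. NDRG1 (ENSG00000104419, chromosome 8, 133237171 to 133302022), a stress-induced gene of differentiation, stood at 173, 173 and 185 CPM in YTHDF1 KO, 396, 380.0 and 369 CPM in siARID1A, 264, 270.1 and 275 CPM in the combined group, and 220.0, 191 and 183 CPM in WT. The siARID1A libraries were highest and the combined group next, while YTHDF1 KO overlapped WT. NDRG1 rose by 0.95 in siARID1A (SE 0.0863, adjusted p = 1.26e-10) and by 0.45 in the combined group (SE 0.0827, adjusted p = 1.05e-05) against WT. P4HA2 (ENSG00000072682, chromosome 5, 132191838 to 132295315), a collagen prolyl 4-hydroxylase subunit, stood at 33.9, 34.7 and 32.9 CPM in YTHDF1 KO, 74.7, 71.6 and 73.4 CPM in siARID1A, 50.4, 47.7 and 50.05 CPM in the combined group, and 43.1, 45.4 and 40.6 CPM in WT. The 4 groups were apart. P4HA2 rose by 0.77 in siARID1A (SE 0.0499, adjusted p = 3.21e-09) and fell by 0.35 in YTHDF1 KO (SE 0.0518, adjusted p = 0.000296) against WT. Its rise of 0.20 in the combined group against WT (adjusted p = 0.0217) was lost without combined replicate 1 or 3 or WT replicate 3, with no filter and with only the 2 groups compared (up to 0.0853). P4HA1, which encodes another catalytic subunit of the same enzyme and was highest in the combined group, rose by 0.39 (adjusted p = 0.000127), 0.26 (adjusted p = 0.00647) and 0.40 (adjusted p = 6.25e-05) in YTHDF1 KO, siARID1A and the combined group.

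BNIP3 and BNIP3L encode mitophagy receptors. BNIP3 (ENSG00000176171, chromosome 10, 131966455 to 131982013) stood at 64.4, 69.5 and 62.5 CPM in YTHDF1 KO, 89.4, 95.6 and 95.65 CPM in siARID1A, 86.7, 75.0 and 74.8 CPM in the combined group, and 62.45, 57.7 and 64.4 CPM in WT. The siARID1A libraries were above all others, and YTHDF1 KO overlapped WT. BNIP3 rose by 0.60 in siARID1A (SE 0.0572, adjusted p = 3.47e-07) and by 0.36 in the combined group (SE 0.0845, adjusted p = 0.000257) against WT. Its calls in the combined group against YTHDF1 KO (0.27, adjusted p = 0.00963) and against siARID1A (-0.25, adjusted p = 0.0102) were lost when libraries were left out. The first was lost without YTHDF1 KO replicate 3 or combined replicate 1 (up to 0.0957), and the second with library totals and without combined replicate 2 or 3 (up to 0.0785). Its 44 annotated pseudogenes together held at most 2.02% of its own level in any group.

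BNIP3L (ENSG00000104765, chromosome 8, 26382898 to 26505636) stood at 67.5, 70.0 and 71.4 CPM in YTHDF1 KO, 96.3, 89.0 and 97.9 CPM in siARID1A, 66.0, 67.6 and 65.5 CPM in the combined group, and 74.9, 79.05 and 91.6 CPM in WT. Groups with YTHDF1 KO were below WT, and siARID1A overlapped WT. BNIP3L was lower in the combined group than in siARID1A (-0.51, SE 0.0448, adjusted p = 5.05e-06). Its other calls were weaker. The fall of 0.23 in YTHDF1 KO (adjusted p = 0.0135) was lost with library totals and without YTHDF1 KO replicate 1 or WT replicate 3 (up to 0.158). The rise of 0.21 in siARID1A (adjusted p = 0.0243) was lost without siARID1A replicate 1 or 3 or WT replicate 1 and with only the 2 groups compared (up to 0.135). The fall of 0.30 in the combined group (adjusted p = 0.00134) was lost with library totals (0.0794). ANKRD37, a small ankyrin-repeat gene induced by HIF, was the other member besides GAPDH that passed nowhere, at 1.34 ± 0.303 CPM in YTHDF1 KO, 1.39 ± 0.481 in siARID1A, 1.45 ± 0.157 in the combined group and 1.66 ± 0.230 in WT. Of its 2580 exon bases, 909 overlap exons of UFSP2 on the opposite strand, and its counts are uncertain.

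The change with YTHDF1 KO was measured in 2 backgrounds that share no library: against WT, and in the combined group against siARID1A. The labels do not say whether both groups with YTHDF1 KO came from the same knockout cells. If they did, any other difference of those cells from WT would enter both comparisons. The chromosome 2 median was -0.41 and -0.42 in these comparisons and 0.01 in the combined group against YTHDF1 KO. The part of such differences in the overlaps below was not tested. Of the 18 members lower in the first and the 16 lower in the second, 11 were in both (61.1% and 68.75%), against 52.1% and 63.0% for all genes called lower. They were SLC2A1, GPI, ALDOA, PGK1, PFKFB3, PDK1, PDK3, EGLN3, CA12, BNIP3L and P4HA2. Of the 10 and 5 members higher, 4 were in both (40% and 80%), namely SLC2A3, HIF1A, EGLN1 and ANGPTL4, against 53.2% and 57.3% for all genes. HK1 was called higher in the first and lower in the second. The change with siARID1A was likewise measured against WT and in the combined group against YTHDF1 KO. There 6 of 13 and of 7 members were higher in both (46.2% and 85.7%, against 37.7% and 66.8% for all genes), namely SLC2A3, SLC16A3, ENO2, BNIP3, NDRG1 and P4HA2. Lower in both were 5 of 10 and of 9 (50% and 55.6%, against 34.2% and 72.3% for all genes), namely SLC2A1, GPI, ENO1, LDHA and CA12. ADM was called higher in the first and lower in the second.

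The interaction was taken as the log2 change that siARID1A made in knockout cells minus the one it made in WT cells. ARID1A itself was less reduced in the knockout: it was higher in the combined group than in siARID1A (0.35, adjusted p = 0.00214), and its own interaction was 0.38 (SE 0.147, adjusted p = 0.0278). The silencing was thus not equal in the 2 backgrounds. YTHDF1 was also higher in the combined group than in YTHDF1 KO (0.31, adjusted p = 0.00323 by edgeR's quasi-likelihood test). The part of these 2 differences in the members' values was not tested. The interaction passed for 4 members in the positive direction (10.5%, background 8.87%) and 7 in the negative (18.4%, background 8.22%). In the negative direction stood HK1 (-1.42, SE 0.131, adjusted p = 3.74e-09), ADM (-1.36, SE 0.0863, adjusted p = 2.04e-09), ALDOC (-1.38, SE 0.274, adjusted p = 0.00301), ENO2 (-0.71, SE 0.0605, adjusted p = 9.86e-06) and PFKFB4 (-0.81, SE 0.278, adjusted p = 0.00997). The first 4 of these rose with each change alone, and in the combined group they stood below the product of the separate fold changes. Both single changes were measured against the same WT libraries, so a shift particular to WT would enter each of them and the interaction. Its part in the values of either direction was not tested. In the positive direction, CA9 (2.95, SE 0.704, adjusted p = 0.00237), VEGFA (0.68, SE 0.112, adjusted p = 9.42e-05) and PFKL (0.41, SE 0.101, adjusted p = 0.00633) fell with each change alone and stood above the product of the separate fold changes. CA9 was near the floor, with 35, 48 and 27 counts in YTHDF1 KO, siARID1A and the combined group, so there was little room for a further fall. By the same edgeR test, the combined group did not pass for CA9 against YTHDF1 KO (-0.34, adjusted p = 0.698) or siARID1A (-1.03, adjusted p = 0.112). The chromosome 9 median of the interaction was 0.39, and its part in the CA9 value was not tested. SLC2A3 rose by more than that product (0.40, SE 0.144, adjusted p = 0.0187), a call lost without YTHDF1 KO replicate 1 or siARID1A replicate 2 (up to 0.0543). NDRG1 (-0.34, adjusted p = 0.0208) lost its call without YTHDF1 KO replicate 3, siARID1A replicate 1 or WT replicate 3 (up to 0.0809). BNIP3 (-0.34, adjusted p = 0.0269) lost it without YTHDF1 KO replicate 1 or 2, combined replicate 2 or 3, or siARID1A replicate 2 or 3 (up to 0.0945). SLC2A1 (0.05, SE 0.169, adjusted p = 0.867), GPI (0.07, SE 0.115), EGLN3 (0.15, SE 0.157) and CA12 (0.20, SE 0.0949) did not pass.

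**Figure D4:**
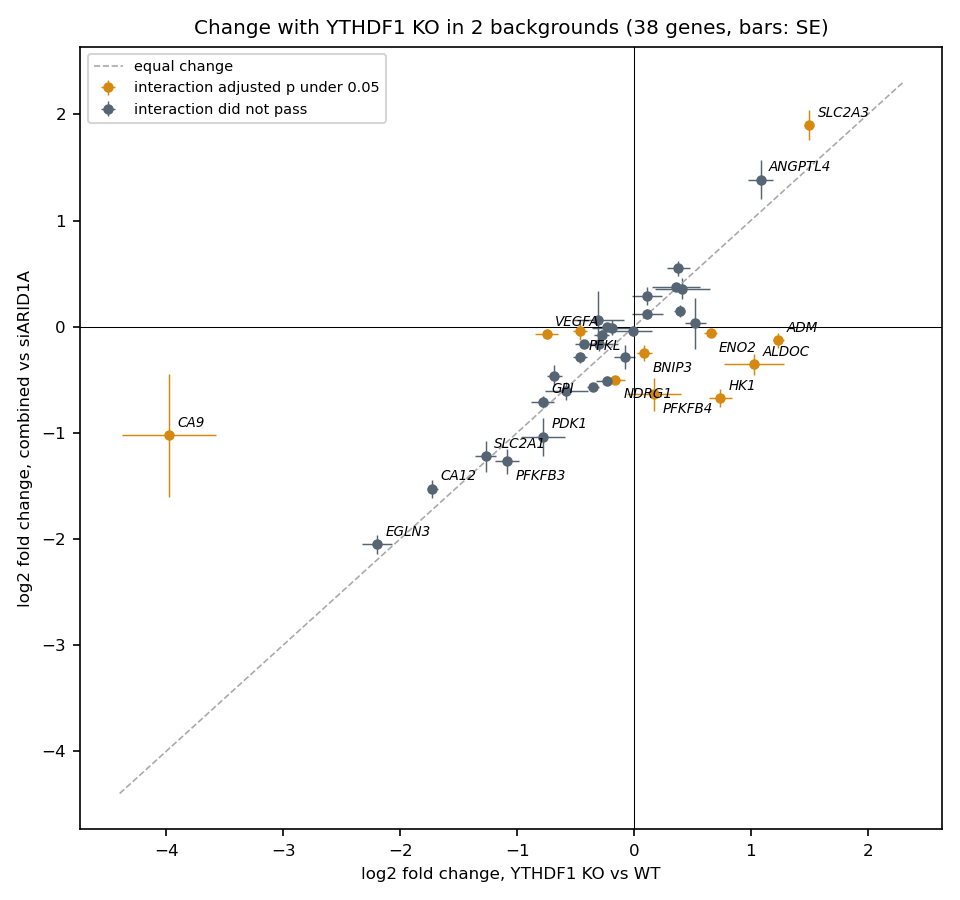
Log2 fold change with YTHDF1 KO against WT (horizontal axis) and in the combined group against siARID1A (vertical axis) for the 38 genes, with bars of 1 SE and the line of equal change. EGLN3, CA12, SLC2A1 and PFKFB3 lie near the line, while HK1, ADM, ALDOC and ENO2 are higher with YTHDF1 KO in WT and at or below 0 in siARID1A cells.

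Other genes of the pathways gave the setting. Of 29 further glycolysis and pyruvate genes tested, 5 rose and 8 fell in YTHDF1 KO, 8 rose and 8 fell in siARID1A, and 9 rose and 10 fell in the combined group, each against WT. Over all tested genes the shares that rose and fell were 19.6% and 20.8% in YTHDF1 KO, 22.1% and 23% in siARID1A, and 25.6% and 25.9% in the combined group. The counts of this list lay near them. HKDC1, a further hexokinase family gene, averaged 32.5 ± 0.612 CPM in YTHDF1 KO, 204 ± 10.6 in siARID1A, 59.96 ± 6.75 in the combined group and 112 ± 3.36 in WT. It fell by 1.78 in YTHDF1 KO (adjusted p = 1.85e-15) and by 0.90 in the combined group (adjusted p = 2.92e-10), and rose by 0.87 in siARID1A (adjusted p = 9.61e-10), each against WT. TIGAR, a phosphatase that lowers fructose 2,6-bisphosphate, rose by 0.50 (adjusted p = 0.000181), 1.32 (adjusted p = 7.18e-11) and 1.02 (adjusted p = 2.98e-09) in YTHDF1 KO, siARID1A and the combined group. Of the 8 pentose phosphate genes, which draw on the same glucose 6-phosphate, 6 fell and 1 rose in YTHDF1 KO, with a median of -0.43. In siARID1A 3 fell and 1 rose (median -0.10), and in the combined group 6 fell and 1 rose (median -0.51). The falls were larger shares of this short list than the shares of all tested genes given above, and the rises were smaller. TKT, the transketolase, fell by 1.00 in YTHDF1 KO (adjusted p = 1.07e-10) and by 0.97 in the combined group (adjusted p = 1.35e-10).

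Of 15 further HIF pathway regulators tested, 4 rose and 1 fell in YTHDF1 KO, and 3 rose and 4 fell in siARID1A. In the combined group 3 rose and 3 fell. Of all tested genes, 19.6% and 20.8%, 22.1% and 23%, and 25.6% and 25.9% rose and fell in these comparisons. EPAS1, which encodes the second oxygen-regulated HIF subunit (HIF-2 alpha), averaged 250.5 ± 7.93 CPM in YTHDF1 KO, 466 ± 17.7 in siARID1A, 199 ± 15.4 in the combined group and 715 ± 10.6 in WT. It fell by 1.51 (adjusted p = 7.03e-15), 0.62 (adjusted p = 9e-08) and 1.84 (adjusted p = 1.31e-16) in those groups against WT, where HIF1A rose or did not pass. EPAS1 lies on chromosome 2, with the median shift given above. CITED2, a HIF target that competes with HIF for its coactivator, rose by 1.11 (adjusted p = 1.59e-09), 0.60 (adjusted p = 2.8e-05) and 1.68 (adjusted p = 5.13e-13). Of 38 further hypoxia target genes tested, 13 rose and 15 fell in YTHDF1 KO, and 14 rose and 12 fell in siARID1A. In the combined group 12 rose and 14 fell. The medians were -0.00, 0.10 and -0.01. Rises and falls were both larger shares of this list than the shares of all tested genes just given. PLAUR, the urokinase receptor, averaged 89.7 ± 4.79 CPM in YTHDF1 KO, 27.6 ± 3.22 in siARID1A, 88.3 ± 5.17 in the combined group and 13.5 ± 1.37 in WT. It rose in YTHDF1 KO against WT (2.74, adjusted p = 1.73e-17).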

How the data were processed

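RNA levels were measured in 12 libraries of A549 cells, 4 groups of 3 taken from the genotype labels. The authors deposited 1 table of raw counts per Ensembl gene. Per the labels, libraries were stranded, and per the submitters' processing notes the genome build was GRCh38 and the tools included edgeR 3.32.1, featureCounts 2.0.1, STAR 2.7.0d and Trim Galore 0.6.6. Which annotation release and strand setting the counting used is not given in the sources used here, so counts of overlapping genes are uncertain. Gene symbols were looked up for 60261 of the 60617 genes, and positions and exon lengths were taken from GENCODE 29 for 58542.

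The tests used edgeR 4.0.16 (with limma 3.58.1, under R 4.3.3). All 12 libraries entered 1 fit with a coefficient per group, after filterByExpr (18524 genes kept, 42093 left out) and scaling by TMM, whose factors ran from 0.912 to 1.055. Genes were tested two-sided by the robust quasi-likelihood F test, p-values were adjusted over all tested genes after Benjamini and Hochberg, and the threshold was 0.05. The biological coefficient of variation was 9.44% (common dispersion 0.0089). Standard errors come from replicate SDs of log2 CPM with a prior count of 2. Library totals were 30220717 to 45042635 counts, and low-count members are the least precise. Alternatives were library totals, RLE factors, DESeq2 1.42.0, no filter, only the groups compared, a replicate block and each library left out. The procedure was tested on simulated data.

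Members and gene lists were chosen with earlier results of these data known. Library values are given for members past the threshold by at least 0.5 (log2) in 1 pairwise comparison and with a mean of at least 10 CPM in 1 group, and for CA9, which was below that level and was added after its values were seen. Of other lists, genes were named from the 3 with the smallest p in each direction. Exceptions were PDK2, the PDK4 value of the combined group against WT, and the cell type markers, which were named whatever their p.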

Additional observations from a re-analysis of the deposited data

Results flagged for a closer look

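For 11 of the 38 genes the change with siARID1A differed between YTHDF1 KO cells and WT cells by edgeR's quasi-likelihood test of the interaction. The values are the log2 change with siARID1A in the knockout minus that in WT. They were -1.42 for HK1, -1.38 for ALDOC, -1.36 for ADM, -0.81 for PFKFB4, -0.71 for ENO2, -0.34 for BNIP3 and -0.34 for NDRG1. They were 2.95 for CA9, 0.68 for VEGFA, 0.41 for PFKL and 0.40 for SLC2A3. The ADM value is made of a change of -0.36 in the knockout and of 1.00 in WT, both past the threshold. Of these 11, the calls of SLC2A3, BNIP3 and NDRG1 did not hold when some single libraries were left out. With 3 libraries a group, no gene's values were tested for an outlying library.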

How the results depend on the processing

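No called member changed direction under any of the 18 alternatives (17 for the interaction), and directions of uncalled members were not compared. Of 4066 values recomputed for single members, 3897 kept their side of the threshold, 121 lost it and 48 newly passed. Calls that held throughout were 23 of 28 in YTHDF1 KO against WT, 19 of 23 in siARID1A, 27 of 32 in the combined group, 18 of 21 in the combined group against siARID1A, 8 of 16 against YTHDF1 KO, and 8 of 11 for the interaction. The counts of members that moved by over 1.5 times were those of the combined group against YTHDF1 KO. With only these 2 groups in the fit, 11 members were higher in place of 7. With each library left out in turn, the higher count ran from 4 to 10 and the lower count from 4 to 10 (7 and 9 with all libraries); the cause was not tested. RLE factors left every count of members called as it was.

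Library totals moved the all-gene median of the combined group against WT to 0.13, against -0.01 with TMM. Same-numbered libraries of different groups did not deviate together (correlations of -0.04 to 0.03), so the numbers were not taken as pairs. With the replicate block, 10 members were higher and 17 lower in YTHDF1 KO against WT, and 7 and 7 in the combined group against YTHDF1 KO. CA9, with 27 to 48 counts in each changed group, and ALDOC, SLC16A3, PDK1 and ANKRD37 are limited by depth.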

Other observations

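Further genes of the same lists were far apart between groups. STC1, a secreted glycoprotein induced by hypoxia, averaged 51.8 ± 3.79 CPM in YTHDF1 KO, 45.5 ± 2.27 in siARID1A, 91.8 ± 1.99 in the combined group and 18.8 ± 1.56 in WT. PLIN2, a lipid droplet coat protein, averaged 60.9 ± 3.31 CPM in YTHDF1 KO, 94.5 ± 4.36 in siARID1A, 87.6 ± 1.90 in the combined group and 28.97 ± 2.65 in WT. It rose in all 3 groups although it lies on chromosome 9, whose median was lower there. TGFBI, a secreted matrix protein, averaged 684 ± 13.7 CPM in YTHDF1 KO, 1431 ± 144 in siARID1A, 437 ± 50.8 in the combined group and 2404 ± 158 in WT. MYC, a transcription factor that also drives glycolytic genes, averaged 137 ± 3.14 CPM in YTHDF1 KO, 139 ± 14.8 in siARID1A, 112 ± 4.78 in the combined group and 208 ± 4.07 in WT. ARRDC4, an arrestin-like gene induced by glucose, had 40 counts in YTHDF1 KO, 296 with siARID1A alone and 126 in the combined group, against 46 in WT.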
